A study of Homo sapiens with 4 samples.

Results

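The CCN genes encode secreted matricellular proteins, which sit in the extracellular matrix and act on cells rather than bearing load. All 6 genes of the human family were followed, out of 63677 genes in the count table: *CCN1* (older symbol *CYR61*), *CCN2* (*CTGF*), *CCN3* (*NOV*), *CCN4* (*WISP1*), *CCN5* (*WISP2*) and *CCN6* (*WISP3*). The rule was membership of the family by name, with no threshold on a measured value, and the family was picked with earlier results of these libraries known. The cells were LX-2, an established human hepatic stellate cell line. They received the miR-6133-5p mimic (group miR-6133-5p) or a negative control mimic (group miControl), each at 20 nM. After 24 h all cells were given rhTGF-β1 (5 ng/mL). RNA was taken 24 h after rhTGF-β1, in 2 libraries per group, so the comparison is of mimics in cells that all received rhTGF-β1, and it holds no group without it. The labels call the libraries replicates 1 and 2 and do not say whether they came from separate cultures, so p-values measure only the spread between these libraries, which may be technical.

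CCN proteins are built from shared modules that resemble insulin-like growth factor binding proteins, von Willebrand factor type C repeats, thrombospondin repeats and a cystine knot, the last of which CCN5 lacks. They bind integrins, heparan sulfate proteoglycans and LRP receptors, and they modulate the activity of growth factors. In fibrosis, CCN2 is the best known member: TGF-β induces it in stellate cells, and it is widely used as a marker of matrix-producing cells. *CCN1* and *CCN2* are also textbook targets of YAP and TAZ, coactivators that act through the TEAD transcription factors, and of serum response factor, whereas CCN3 is often described as opposing CCN2.

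In the libraries with miR-6133-5p, *CCN2* fell 4.97-fold and was the only one of the 6 genes called, which asks for an adjusted p below 0.01 together with a log2 difference larger than 0.8. Over all tested genes, 8.44% met both conditions. *CCN1*, the other abundant member, was lower by a smaller amount that did not reach 0.8. *CCN3*, expressed at a low level, was higher by a like amount, also short of 0.8. *CCN4*, *CCN5* and *CCN6* were at or near the limit of detection. Because *CCN2* lost far more than *CCN1*, the order of the leading members changed, with *CCN2* first in both miControl libraries and *CCN1* first in both miR-6133-5p libraries.

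The promoter of *CCN2* is shown first because its responsiveness to TEAD factors is part of what the gene is known for. RefSeq promoters of 300 bases, from 250 bases before the annotated start to 50 after it, were at hand for *CCN2* and *CCN6*, on build GRCh38.p14. They were searched on both strands for the TEAD core GGAATG. *CCN2* held 3 matches, all on the gene's own strand, and their capitals below mark the core. Counted from the annotated start as position 0, they begin at positions -169, -104 and -95, and the last 2 windows overlap.

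CCN2, chr6:131951525-131951552, minus strand: tttcagacggaGGAATGctgagtgtcaa
CCN2, chr6:131951460-131951487, minus strand: gaaggtggggaGGAATGcgaggaatgtc
CCN2, chr6:131951451-131951478, minus strand: gaggaatgcgaGGAATGtccctgtttgt

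Of the 35116 promoters of the same length, 4928 (14.0%) held the core at least once and 45 (0.128%) held it at least 3 times. The promoter of *CCN6*, a gene hardly expressed in these cells, is shown because it was the only other member promoter at hand. It held the core 2 times, and 482 promoters (1.37%) held it 2 or more times. Its matches lay on opposite strands, beginning at positions -128 and -1.

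CCN6, chr6:112053965-112053992, plus strand: gggcaaggaagGGAATGacgtgggaccc
CCN6, chr6:112054092-112054119, plus strand: aagtgctcgccCATTCCtgacctgtgac

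The AP-1 element TGANTCA and the CArG box, the element bound by serum response factor, had no match in either window. They were found in 7.71% and 1.29% of all promoters. These are matches of letters and say nothing of binding in these cells.

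Between 51862006 and 93811213 counts fell on genes in each library, so that a single count was worth between 0.0101 and 0.0203 CPM. Levels are given as CPM, counts scaled to library size after TMM adjustment in edgeR. The counts per library were 1.68 to 1.70 times the number of uniquely mapped read pairs, so mates of a pair may have been counted separately, in which case counts are not independent molecules. The stellate cell label was checked against 14 markers. *VIM* (1814.6 CPM with miControl), *COL1A1*, *COL3A1* and *PDGFRB* were expressed, whereas *DES*, *LRAT* and *GFAP* were at or below 0.163 CPM in every library, and *DES* was at 0 counts in both miControl libraries. Of the 10 markers that could be tested, 2 were called lower and 8 were not called. *COL1A1*, a chain of type I collagen, went from 2917 ± 275 to 1064 ± 97.5 CPM and *ACTA2*, smooth muscle actin, from 38.2 ± 4.80 to 9.91 ± 0.176 CPM (SD, n = 2). *VIM* and *PDGFRB* had log2 fold changes of -0.02 and 0.04. The sum over the markers, 4718 and 5201 CPM against 2862 and 3185 CPM, therefore follows mainly *COL1A1*, and its part in the CCN results was not tested. Markers of hepatocytes summed to 2.01 to 2.84 CPM over all libraries, with *TTR* and *HNF4A* at 0 counts, those of leukocytes to 9.07 to 11.02 CPM and those of endothelium to 0.624 to 1.35 CPM. The sum of the 4 cholangiocyte markers was 83.9 and 85.3 CPM in the control libraries, against 36.8 and 39.9 CPM after the miR-6133-5p mimic, and *EPCAM* was at or below 0.0407 CPM. Of these markers *SOX9* fell from 80.5 ± 0.427 to 31.3 ± 2.53 CPM, whereas *KRT7* was higher without being called, at 4.03 ± 0.582 and 6.84 ± 0.335 CPM (SD, n = 2), and *KRT19* stayed at or below 0.182 CPM. In bulk RNA, fewer cells of a kind and less RNA per cell cannot be told apart.

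**Figure D1:**
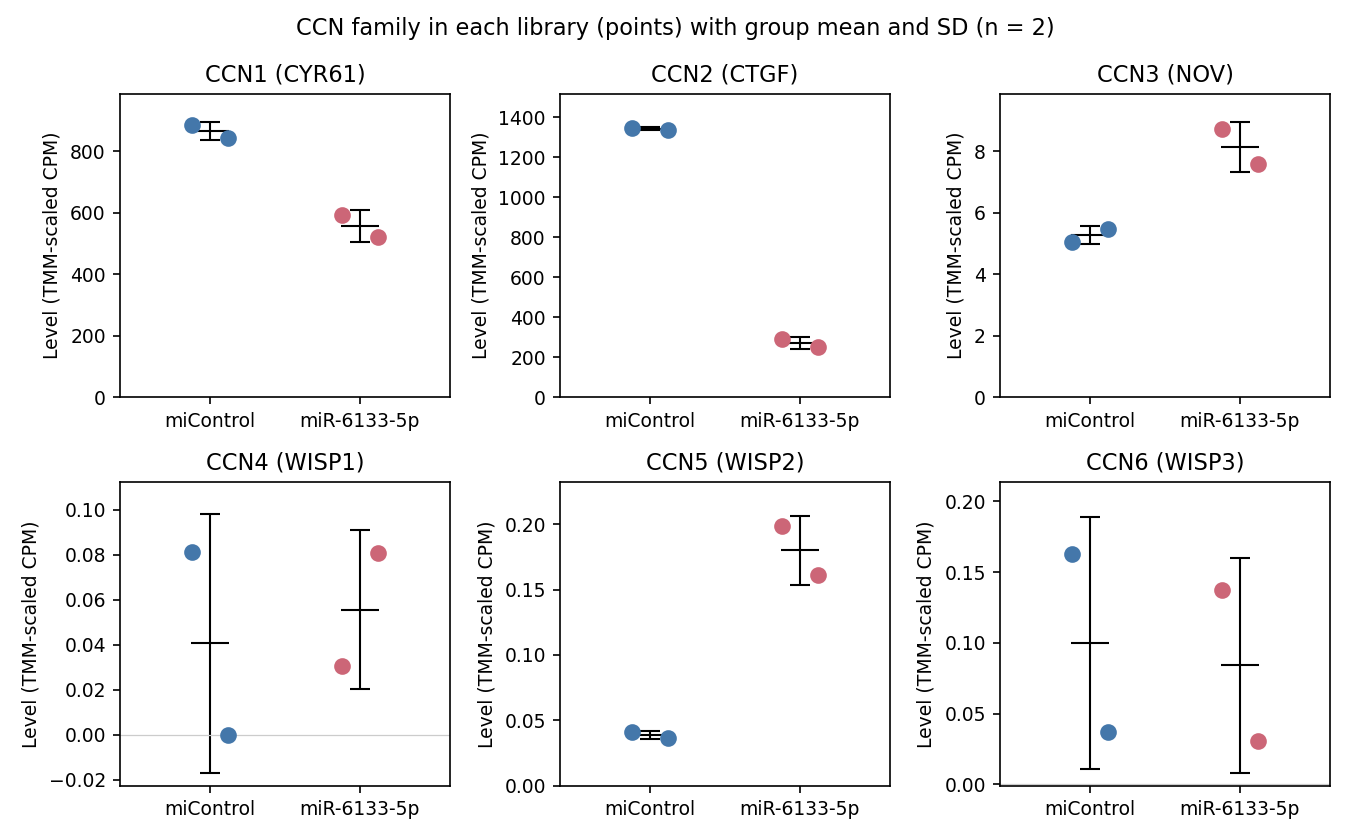
Level of each CCN gene (TMM-scaled CPM, linear axes with a separate scale per gene) in the miControl and miR-6133-5p libraries. Points are libraries, and bars are the mean and SD of 2. CCN2 goes from about 1344 to 271 CPM, CCN1 and CCN3 differ without overlap by smaller amounts, and the lower row is at or below 0.2 CPM throughout.

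*CCN2* (ENSG00000118523) lies on chromosome 6 from 132269316 to 132272512 of GRCh37, on the minus strand, with 5 exons in its canonical transcript of 2338 bases. With miControl it had 66354 and 72923 counts, and with miR-6133-5p 19103 and 24702, or 1349.7 and 1339 CPM against 292 and 249 CPM. The groups were far apart, and the miControl libraries nearly coincided. The means were 1344 ± 7.65 CPM and 271 ± 30.4 CPM (SD, n = 2). The log2 fold change was -2.31 (standard error 0.114, 95% interval -2.56 to -2.07), a level 4.97-fold lower (adjusted p = 2.87e-08, edgeR quasi-likelihood test). Ordered from the most negative fold change, it stood at rank 78 of 18252 tested genes. A call toward lower was made for 5.54% of tested genes and toward higher for 2.90%, and the median log2 fold change was 0.03. *LINC01013*, an antisense gene, shares 11.9% of the exonic length of *CCN2*, and the strand setting of the counting is not stated. It had 12, 5, 2 and 2 counts in the same libraries.

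*CCN1* (ENSG00000142871), an immediate-early gene induced by serum and by stretch, lies on chromosome 1 from 86046444 to 86050272 on the plus strand. Its counts were 43594 and 45992 with miControl and 38862 and 51594 with miR-6133-5p, which correspond to 887 and 844 CPM against 594 and 520.4 CPM. The raw counts of the groups overlapped because the last library was the deepest, whereas both scaled levels with miR-6133-5p lay below both with miControl. Such separation was seen in 31.3% of tested genes. The log2 fold change was -0.63 (standard error 0.107, 95% interval -0.87 to -0.40), from 866 ± 29.9 to 557 ± 52.3 CPM (SD, n = 2). Its adjusted p-value of 0.000591 (edgeR) was below 0.01, as for 10.9% of tested genes in this direction, but the size fell short of 0.8 and *CCN1* was not called. Without miControl replicate 1 the adjusted p was 0.037 and without miControl replicate 2 it was 0.0126 (edgeR).

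The levels of *CCN1* and *CCN2* were then compared per length, as CPM per kilobase of the canonical transcript, of which *CCN1* has 2278 bases. With miControl, *CCN2* stood at 577 and 573 CPM per kilobase and *CCN1* at 389 and 371. With miR-6133-5p the order was the opposite, with *CCN2* at 125 and 107 and *CCN1* at 261 and 228 CPM per kilobase. The ratio of *CCN2* to *CCN1*, which does not depend on how libraries are scaled, was 1.48 and 1.54 in the miControl libraries and 0.479 and 0.466 in the miR-6133-5p libraries. The log2 ratio went from 0.60 ± 0.0417 to -1.08 ± 0.0269 (SD, n = 2), a difference of -1.68. An exact permutation test (2-sided) gave p = 0.33, the smallest that 2 libraries against 2 allow. With the union of all annotated exons as the length, under which *CCN1* has 3698 bases, the ratio was 2.41 and 2.51 with miControl and 0.777 and 0.757 with miR-6133-5p, so the order changed under both lengths. Other annotated transcripts of *CCN1* were not tried.

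**Figure D2:**
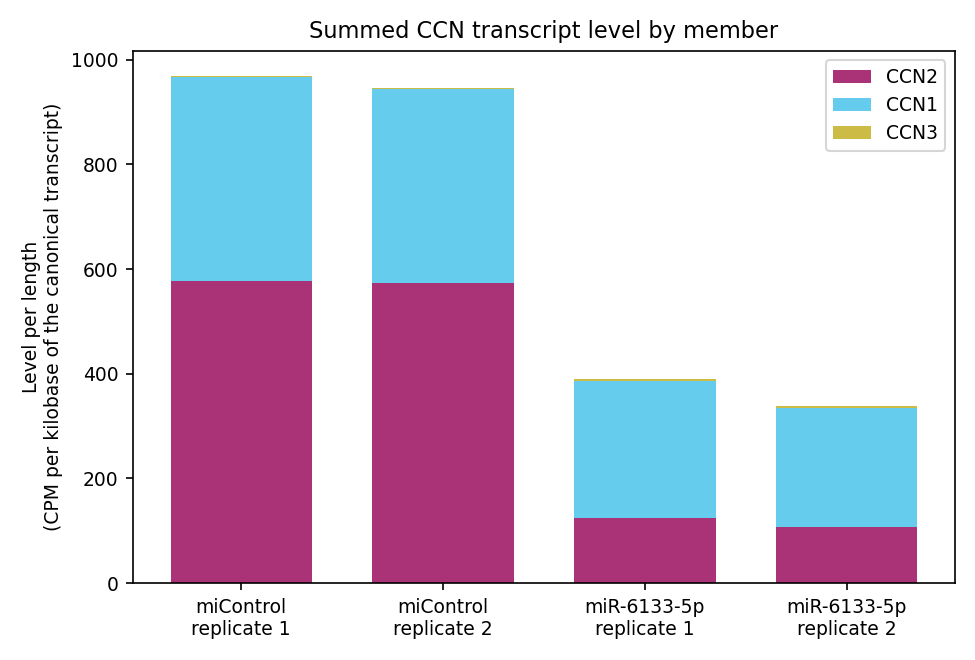
Summed level of the CCN genes per length (CPM per kilobase of the canonical transcript, linear axis from 0) in each of the 4 libraries, divided by member. CCN4, CCN5 and CCN6 are too low to draw. The stack shrinks from 969 and 946 to 390 and 338, and CCN1 takes the larger part of it in the miR-6133-5p libraries.

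Added over the 6 members, the family went from 2215 ± 37.4 CPM under the control mimic to 837 ± 83.6 CPM under miR-6133-5p (SD, n = 2). *CCN2* made up 77.9% of that difference and *CCN1* 22.4%. Per length, the share of the family's transcripts that were *CCN2* went from 60.1% ± 0.685 to 31.8% ± 0.398, and the share of *CCN1* from 39.7% ± 0.694 to 67.2% ± 0.411 (SD, n = 2). *CCN3* made up 0.224% ± 0.0166 and 0.909% ± 0.000653. Ranked per length among the 17285 tested genes with a canonical transcript, *CCN2* stood at rank 65 from the top with miControl and at rank 454 with miR-6133-5p. *CCN1* stood at ranks 115 and 179.

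*CCN3* (ENSG00000136999) lies on chromosome 8 from 120428686 to 120436674 and, like *CCN1*, *CCN2*, *CCN4* and *CCN6*, has 5 exons in its canonical transcript. It had 249 and 299 counts with miControl and 570 and 751 with miR-6133-5p. The levels were 5.06 and 5.49 CPM against 8.72 and 7.58 CPM, and both miR-6133-5p libraries lay above both miControl libraries, as in 33.2% of tested genes. The log2 fold change was 0.62 (standard error 0.150, 95% interval 0.30 to 0.95), which is 1.54-fold (adjusted p = 0.00664, edgeR). An adjusted p below 0.01 in this direction was found for 7.96% of tested genes, and with a size under 0.8 *CCN3* was not called. Leaving out a library moved its adjusted p (edgeR) above 0.01 in 3 of 4 cases: it was 0.100 and 0.0482 without miControl replicates 1 and 2, and 0.0149 without miR-6133-5p replicate 1. An antisense gene with no row in the count table overlaps 7.80% of its exonic length.

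*CCN5* (ENSG00000064205), the member without the cystine knot, lies on chromosome 20 from 43343485 to 43357150. It had 2 counts in each miControl library and 13 and 16 in the miR-6133-5p libraries, at 0.0407 and 0.0367 CPM against 0.199 and 0.161 CPM. The gene entered the test only through the group in which it is higher, so it had to differ there. The pooled level with miR-6133-5p was 4.57 times that with miControl, with an exact 95% counting interval from 1.604 to 17.9. With the counts halved, to allow for mates counted separately, the interval ran from 1.01 to 40.0. Neither interval allows for the way the gene entered the test, so they give no support for a rise. The fitted log2 fold change of 2.16 had a standard error of 0.808 and an adjusted p of 0.0605 (edgeR), and *CCN5* was not called. Without a filter on low counts its adjusted p was 0.140 (edgeR).

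*CCN4* (ENSG00000104415, chromosome 8 from 134203282 to 134243933) and *CCN6* (ENSG00000112761, chromosome 6 from 112375278 to 112390889) had too few counts for the test. *CCN4* had 4 and 0 counts with miControl and 2 and 8 with miR-6133-5p. The library with 0 counts allows up to 0.0551 CPM, the level of 3 counts, or more if mates were counted separately. *CCN6* had 8 and 2 counts against 9 and 3. Both genes overlapped between the groups, with pooled ratios of 1.57 (95% counting interval 0.454 to 6.88) and 0.756 (0.299 to 1.95). With the counts halved, the intervals were 0.258 to 16.5 and 0.192 to 3.13, so differences in these genes were not detectable at this depth. These intervals and limits cover counting error only.

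**Figure D3:**
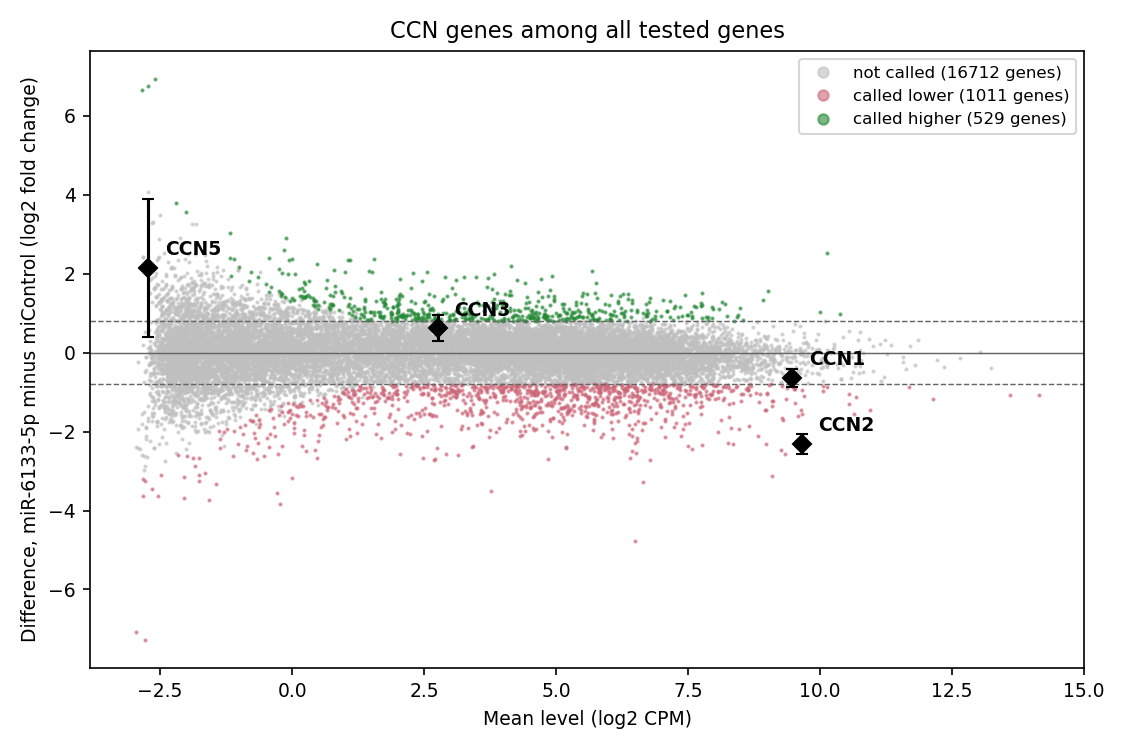
Difference between the groups (log2 fold change, miR-6133-5p minus miControl) against mean level (log2 CPM) for all 18252 tested genes, with dashed lines at 0.8 and -0.8. Diamonds with 95% intervals are the 4 CCN genes that could be tested. CCN2 lies at -2.31 among the most abundant genes, CCN1 and CCN3 lie inside the dashed lines, and CCN5 has a wide interval at the lowest levels.

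Among the 9463 genes with a symbol and log2 CPM averaging 3 or more, the 4 nearest to *CCN2* over the 4 libraries were *TIMP3*, *CREB3L1*, *TP53I11* and *HMGA1*. Nearness was the Euclidean distance between log2 CPM values centred on each gene's mean, and it was 0.107 for *TIMP3* and 0.177 for *HMGA1*. *TIMP3*, an inhibitor of metalloproteinases bound to matrix, had a log2 fold change of -2.32. This is a description over 4 libraries.

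Genes that bind, drive or accompany the CCN proteins were taken from 6 lists holding 84 genes, of which 81 were tested. Of these, 21 (25.9%) were called lower and 4 (4.94%) called higher, with a median log2 fold change of -0.28. The shares over all tested genes were 5.54% lower and 2.90% higher, with a median of 0.03. The lists were written with earlier results of these libraries known, so the counts describe the lists and are not independent evidence.

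Of the 15 receptor and co-receptor genes, 4 were called lower, none was called higher and 11 were not called. The integrin chain genes *ITGA5* (987 ± 67.6 to 113 ± 7.59 CPM), *ITGB3* (log2 fold change -1.53) and *ITGAV* (-0.87) fell, and so did *LRP1* (-0.80), an endocytic receptor for CCN2. *ITGB1*, the common partner chain, was at -0.52, and *SDC4*, a heparan sulfate proteoglycan, at 0.56. The call of *LRP1* was lost with DESeq2 (adjusted p = 0.113), and its log2 fold change was -0.46 without miR-6133-5p replicate 1. Scaling by library totals put *ITGAV* at -0.71 and *LRP1* at -0.64.

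Of the 13 genes for YAP, TAZ, TEAD and serum response factors with their regulators, 3 were called lower and 10 were not called. They were *VGLL3*, a TEAD cofactor, at -1.61, *SRF* at -1.58 and *TEAD3* at -0.84 on the log2 scale, and the last was -0.67 with library totals. *SRF*, the serum response factor, went from 81.5 ± 1.99 to 27.2 ± 1.99 CPM (SD, n = 2). *WWTR1*, which encodes TAZ, was at -0.79, just inside the threshold (adjusted p = 7.40e-05, edgeR), and *YAP1* was at 0.39 (adjusted p = 0.0122, edgeR). The number of genes called lower in this list was 4 with DESeq2 or RLE, and 2 with library totals or glmTreat.

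Of 20 established YAP and TEAD targets other than *CCN1* and *CCN2*, 19 were tested, and 7 were called lower and 1 higher, with a median log2 fold change of -0.39. *IGFBP3* (-2.11), *TGFB2* (-1.55), *FJX1* (-1.50) and *AXL* (-1.27) fell most. *ANKRD1*, which is used beside *CCN1* and *CCN2* as a readout of YAP, stood at 31.6 ± 0.771 CPM with miControl and rose to 65.8 ± 3.37 CPM (SD, n = 2), or by 1.06 on the log2 scale (adjusted p = 6.67e-06, edgeR). So the 3 customary YAP readouts differed in direction or size, at -2.31 for *CCN2*, -0.63 for *CCN1* and 1.06 for *ANKRD1*. With glmTreat, which tests against 0.8 itself, 5 genes of this list were called lower and 0 higher. The call of *ANKRD1* was lost there (adjusted p = 0.085, glmTreat).

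Of the 16 serum immediate-early genes, 4 were called lower and 1 higher, with a median of -0.42. *EGR1*, a zinc finger factor that is itself a target of serum response factor, went from 18.03 ± 1.56 to 3.41 ± 0.0188 CPM (SD, n = 2), or -2.40 on the log2 scale, and was followed by *FOS* (-1.06) and *EGR2* (-0.94). *ZFP36*, which encodes an RNA-binding protein that promotes mRNA decay, rose by 0.88. The call of *FOS* was lost without either miControl library and that of *ZFP36* without any of 3 libraries, while *EGR2* was -0.78 with library totals.

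Of the 15 genes for TGF-β receptors, SMADs and direct targets, 2 were called lower and 1 higher, with a median of -0.11. *TGFBR2*, the type II receptor that binds TGF-β, at a log2 fold change of -2.31 (547 ± 7.44 to 111 ± 1.64 CPM), was among those that fell. *TGFBR3*, the betaglycan co-receptor, rose by 1.49. *SMAD7* and *SKIL*, feedback genes induced through SMADs, were at -0.31 and -0.11 and were not called. Of the 7 genes for IGF binding proteins, with which the CCN proteins share a module, 5 were tested: *IGFBP3* and *IGFBP5* (-1.63) fell, and *IGFBP6* rose by 0.93, or by 0.75 without miR-6133-5p replicate 1.

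**Figure D4:**
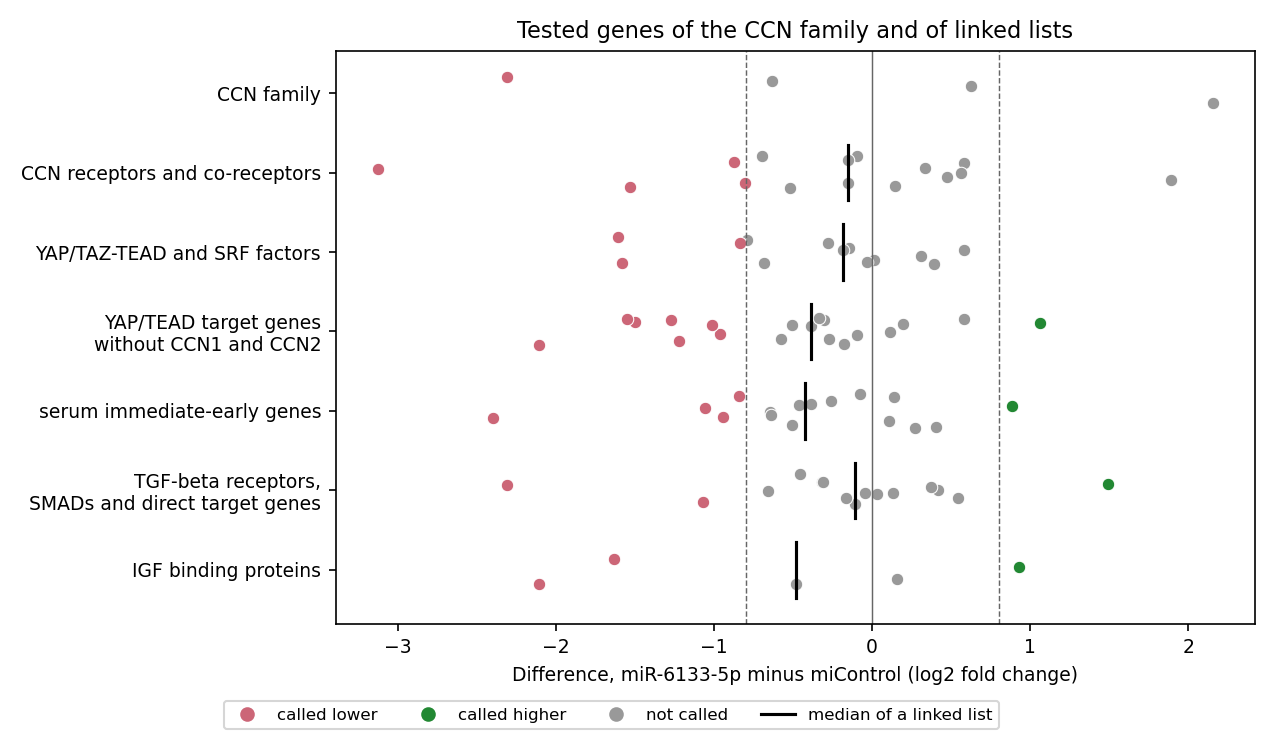
Difference between the groups (log2 fold change, miR-6133-5p minus miControl) for each tested gene of the CCN family and of the 6 linked lists, with the median of each linked list as a black line and dashed lines at 0.8 and -0.8. Points are genes; red genes were called lower, green genes higher and grey genes not called. List medians lie between -0.48 and -0.11, and every linked list holds genes on both sides of 0.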

How the data were processed

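PolyA RNA of LX-2 cells was made into 4 libraries with a stranded kit and sequenced as read pairs. The authors aligned them to GRCh37 with STAR 2.5.3a and GeneData Profiler Genome, and featureCounts and Subread 1.6.4 are named in the submitters' processing notes. The deposited values are whole-number counts per Ensembl gene, without normalization. The strand setting of the counting and the annotation release are not given in the sources used here. The single-library files held the same counts as the table, and the count of uniquely mapped pairs came from the deposited mapping summary.

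Symbols, positions and lengths came from GENCODE v44 lifted to GRCh37, which named 55665 of the 63677 genes. One listed marker, *PECAM1*, was not matched and was left out. Genes were filtered with filterByExpr, scaled with TMM and tested by the quasi-likelihood test of edgeR 4.0.16 in R 4.3.3, 2-sided, with Benjamini–Hochberg adjustment over 18252 genes. The adjusted p-value of 0.01 and log2 fold change of 0.8 follow the study's methods. Standard errors were derived from the F statistic. Level and likeness used CPM and log2 CPM (prior count 2). The script was tested on simulated counts, in which edgeR recovered 65% of genes changed by 1 on the log2 scale. It recovered 82% of those changed by 2, with 1 false call among unchanged genes. A gene that was not called can therefore be a missed change. The alternatives were RLE, library totals, DESeq2 1.42.0, no filter, at least 10 counts in every library, a replicate block, glmTreat, an adjusted p of 0.05 and each library left out in turn. The members and lists were chosen with earlier results of these data known. All members are named, with at most 4 called genes per list of the largest change and genes singled out after their values were seen (*ITGB1*, *SDC4*, *WWTR1*, *YAP1*, *ANKRD1*, *SMAD7*, *SKIL*). Some genes of the lists are counted but not reported by name here.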

Additional observations from a re-analysis of the deposited data

How the results depend on the processing

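The fold changes of *CCN1*, *CCN2* and *CCN3* kept their direction under each alternative that refitted them, and *CCN2* was the only member called under every alternative run. The direction of *CCN5* was fixed by how it entered the test. DESeq2 gave no adjusted p for *CCN5*, which failed the filter with at least 10 counts in every library and without miR-6133-5p replicate 1. With each library left out in turn, *CCN2* ran from -2.45 to -2.22, *CCN1* from -0.75 to -0.56, *CCN3* from 0.50 to 0.71 and *CCN5* from 2.06 to 2.28 on the log2 scale, and the *CCN2* to *CCN1* difference from -1.71 to -1.65. The last of these, and the union exon length, were chosen after the data were seen. Scaling by library totals moved the median of all genes from 0.03 to 0.19, *CCN2* to -2.15, *CCN1* to -0.47 and *CCN3* to 0.79. It called 709 genes lower and 977 higher, against 1011 and 529 with TMM, so that the balance turned toward higher calls. With glmTreat, which tests the fold change against 0.8 itself, calls went down to 326 lower and 80 higher over all genes, and to 12 lower and 1 higher over the linked genes. Leaving out a library gave 770 to 1249 genes lower and 293 to 587 higher, and 19 to 22 linked genes lower and 2 to 4 higher, with the fewest higher calls over all genes (293) without miControl replicate 1 and over the linked genes (2) without miR-6133-5p replicate 1.

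Deviations of libraries with the same replicate number had a Pearson's r of 0.049 across genes, which are not independent replicates. No deviation shared across genes as a whole was therefore seen. This cannot exclude pairing that affects part of the genes, and the labels do not say how the replicates were made. With a replicate block, *CCN2* was at -2.32, *CCN1* at -0.64, *CCN3* at 0.62 and *CCN5* at 2.16, and 1130 genes were called lower and 642 higher. Depth limits the statements on *CCN4*, *CCN5* and *CCN6*, and 2 libraries per group limit all of them.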
